A study of Mus musculus with 167 samples.

Results

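The 10 genes described here carry out the handling of nitrogen in the liver: the enzymes of the urea cycle (Cps1, Otc, Ass1, Asl and Arg1), the enzyme that makes the activator of the cycle (Nags), the enzymes that bind or release ammonia through glutamine (Glul and Gls2), and enzymes that release ammonia from histidine (Hal) and from serine (Sds). They were taken by name from the 39179 gene IDs of the deposited tables, and all 10 were found and passed the filter on low counts in every comparison. The question is whether their RNA follows the length of the CAG repeat of huntingtin (Htt), the age or the sex of the animal.

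RNA with a polyA tail was sequenced from flash-frozen livers of C57BL/6 mice, 167 libraries in all. The knock-in animals carried 1 changed copy of Htt beside a normal one (heterozygous), in 6 lines named by their repeat (Q20 and Q80, Q92 and Q111, Q140 and Q175). Each line carries its allele in the germline, and Q20 is the shortest. Wild-type animals of the same strain carried no knock-in allele. Animals were 2, 6 or 10 months old, which gives 21 groups of genotype and age. Every group has 8 libraries, 4 from females and 4 from males, except in Q80, whose labels give 3 females with 5 males for the age of 2 months and 4 females with 3 males for 10 months. Per the labels each line was housed with animals of its own genotype, and the wild type with Q20, so line and cage mates cannot be told apart. The labels number the samples of a group without saying more of the animals, so p-values measure the spread between these samples.

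The urea cycle turns ammonia and the nitrogen of aspartate into urea, which the kidney removes. It runs in the hepatocytes around the portal vein, where Gls2 also releases ammonia from glutamine and feeds the cycle. Glul is made by a thin layer of hepatocytes around the central vein, where it takes up the ammonia that the cycle has missed. Fasting, glucagon, glucocorticoids and dietary protein are known to raise several of these enzymes.

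Total counts ran from 32025244 to 57151736 per library with a median of 38663519. Per library Cps1 had between 89664 and 327668 counts and Nags, the lowest of the 10, between 1164 and 3958, so counting error is small against the differences between animals. The 8 hepatocyte markers (Alb, Apoa1 and others) were detected in every library and together had between 79772 and 163094 CPM (counts scaled to the size of the library). At 6 months the knock-in libraries and the wild-type libraries carry names and index numbers of different series, and Q20 shares its index numbers with Q92 alone, Q175 with Q80, and Q111 with Q140 (called index sets here). A library labelled as a male of Q80 at 2 months (M5) goes against its label: the Y-linked genes summed to 0 CPM, against at least 104 CPM in every other male, while its Xist was 0.513 CPM, against at least 328 CPM in females. At 10 months 7 libraries of Q92, Q111 and Q175 hold RNA of skeletal muscle, blood or bile duct, and at 6 months the Q20 females F1, F3 and F4 stand apart by their markers of Kupffer cells and macrophages, with sums of 1112, 1098 and 1287 CPM, against 412 to 721 CPM in the other Q20 libraries. The tests between groups, sexes and ages were run again without them, and the values are given where a call was lost or gained. The search for muscle, blood or bile duct RNA was made at 10 months only. At 6 months bile duct marker sums reached 139.7 CPM in Q111 F1 and 111.6 CPM in Q92 F2. Adipocyte marker sums reached 165 CPM in wild-type F2 at that age. These libraries were not among those left out. Htt itself, counted over both alleles, averaged 21.3 ± 0.953 CPM in Q175 and 31.6 ± 2.75 CPM in Q20 at 6 months (SD, n = 8 each).

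The genes lie on 6 chromosomes, by the GENCODE M21 annotation of GRCm38. Cps1 spans chr1:67123026-67231259 and Glul chr1:153899944-153909723, both on the plus strand. Hal (chr10:93488768-93519304, plus strand), Gls2 (chr10:128194457-128210004, plus strand) and Arg1 (chr10:24915221-24927484, minus strand) share chromosome 10, and Otc is on the X chromosome (chrX:10252305-10321024). Asl (chr5:130011258-130029247) and Sds (chr5:120476526-120483932) lie on chromosome 5 as Htt does, 95.1 Mb and 85.6 Mb from it, and the others on chromosomes 2 (Ass1) and 11 (Nags).

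RefSeq's table of promoters (GRCm38.p6) held 5 of the 10 genes (Ass1, Glul, Hal, Nags and Otc). The 250 bases before the start are shown for Hal, whose level differed between lines more often than that of any other member, and for Glul, whose level differed between the sexes at all 3 ages. Capitals mark the letters of the motifs that were found, and both sequences are written 5′ to 3′ on the strand of the gene, the plus strand. The window of Hal is chr10:93488518-93488767 and that of Glul is chr1:153899679-153899928.
Hal: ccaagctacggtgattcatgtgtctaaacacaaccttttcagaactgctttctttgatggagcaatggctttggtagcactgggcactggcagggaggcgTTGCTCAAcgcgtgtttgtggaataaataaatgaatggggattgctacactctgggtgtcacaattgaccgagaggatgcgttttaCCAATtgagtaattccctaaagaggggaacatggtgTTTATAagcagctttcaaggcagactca
Glul: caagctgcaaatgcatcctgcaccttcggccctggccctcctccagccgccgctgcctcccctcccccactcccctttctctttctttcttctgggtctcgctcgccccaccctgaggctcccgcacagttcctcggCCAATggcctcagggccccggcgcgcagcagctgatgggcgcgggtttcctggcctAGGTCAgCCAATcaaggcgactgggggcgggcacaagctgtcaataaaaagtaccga
For these windows 9 motifs were searched on both strands. The Hal window holds the C/EBP letters TTGCNNAA at −150 to −143 from the start, which 9.56% of the 32851 windows of the same length hold, CCAAT at −64 to −60 (33.8% of windows), and the TATA letters TATAAA on the other strand at −28 to −23 (12.4% of windows). The Glul window holds CCAAT at −113 to −109 and at −50 to −46, and the nuclear receptor motif AGGTCA at −57 to −52 (14.02% of windows). AGGTCA is also present before Nags, and the E box CACGTG (6.02% of windows) before Ass1. The letters TGACGTCA (1.55% of windows), TGACG (17.8%), TGTTCT (16.1%) and TGTTTAC (3.17%) are in none of the 5 windows, and no motif is in that of Otc. The matches do not overlap one another. A match describes the letters of the window and not the binding of a factor.

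Together the 10 genes took up between 0.861% and 1.73% of all counts of a library, with a median of 1.24%. On the FPKM scale, which is per length of the transcript, Ass1, which joins citrulline to aspartate, was the highest with 1977 ± 452 FPKM over all libraries (SD, n = 167), the 48th of all 39179 gene IDs. Cps1, which makes carbamoyl phosphate from ammonia and opens the cycle, followed with 937 ± 161 FPKM and rank 83. Arg1, which splits arginine into urea and ornithine, had 748 ± 118 FPKM. Levels of Glul (332 ± 62.4 FPKM), Asl (272 ± 55.2 FPKM), which splits argininosuccinate, and Otc (225 ± 19.4 FPKM), which makes citrulline, came next. Gls2 had 176 ± 41.2 FPKM, Sds 152 ± 61.8 FPKM and Hal 152 ± 44.3 FPKM. Nags was the lowest with 26.6 ± 4.25 FPKM and rank 1998.

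**Figure D1:**
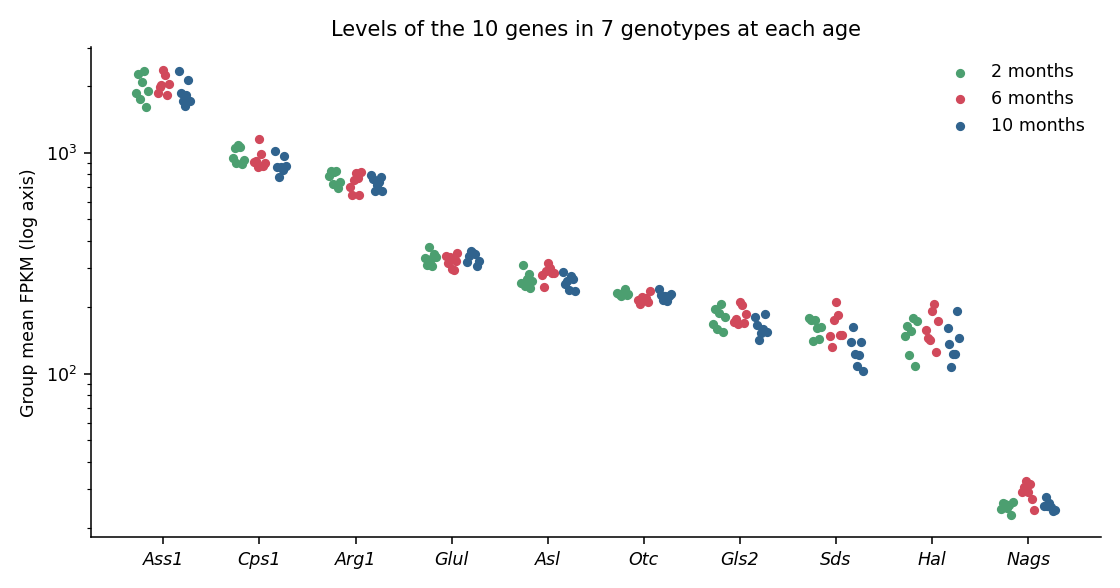
Mean FPKM (log axis) of each of the 10 genes in each of the 21 groups. Each point is 1 group of 7 or 8 libraries, coloured by age. Ass1 lies at the top and Nags at the bottom in every group, while the points of Sds and Hal share a range.

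Ass1 was above Cps1, Arg1 above Glul, and Hal above Nags in all 167 libraries, and the mean ± SD ranges of these pairs did not meet. The other neighbours in the order lay within their spread. Cps1 was above Arg1 in 155 libraries and Gls2 above Sds in 126, while Sds was above Hal in only 73.

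Over the 21 groups the mean of Cps1 lay between 4095 CPM (Q175 at 10 months) and 6070.25 CPM (Q20 at 6 months). Relative to its lowest mean Otc had the narrowest range, from 472 CPM (Q140 at 6 months) to 580.1 CPM (Q80 at 2 months), and Hal the widest, from 311 CPM (Q175 at 10 months) to 642 CPM (Q80 at 6 months). Ass1 ran from 2712 CPM (Q92 at 2 months) to 4033 CPM (Q80 at 2 months), Asl from 407 CPM (wild type at 10 months) to 547 CPM (Q140 at 2 months) and Arg1 from 930.4 CPM (Q140 at 6 months) to 1260.35 CPM (wild type at 6 months). Nags ran from 44.1 CPM (Q92 at 2 months) to 62.9 CPM (Q175 at 6 months), Glul from 786 CPM (Q20 at 6 months) to 1070.4 CPM (Q175 at 2 months), Gls2 from 288 CPM (Q175 at 10 months) to 465.8 CPM (Q80 at 6 months) and Sds from 114 CPM (wild type at 10 months) to 215 CPM (Q20 at 6 months).

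Members differed in how far single animals strayed from their group. After genotype and sex were taken out, Otc had the smallest SD on the log2 scale, 0.12 at 2 months, 0.13 at 6 months and 0.14 at 10 months. Sds, the serine dehydratase, had the largest, 0.40, 0.43 and 0.44. The median over 11361 genes was 0.17 at each age, so Otc lay below it at all 3 ages, as did Nags at 10 months (0.16), and the other values of the members lay above it. In the annotation 651 bases of Sds overlap Plbd2, a gene on the other strand with a median of 2692 counts, and 97 bases of Gls2 overlap Spryd4. Whether reads were shared between these genes was not tested.

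At 6 months 2 of the 10 genes fell with the length of the repeat: Cps1 and Hal. The slope was fitted over the 6 knock-in lines with sex in the model, in log2 units per 100 repeats, and a call means an adjusted p below 0.05 over all genes tested, from the quasi-likelihood test of edgeR. Of all genes tested 5.67% were called in this slope at 6 months, 0.266% at 2 months and 0.25% at 10 months. At 2 and 10 months 0 of the 10 were called by edgeR, by DESeq2 or by limma on FPKM, and 0 had an unadjusted p below 0.05 in edgeR's test. Without the Q20 line edgeR called Gls2 and Hal in the 10-month slope, both negative (adjusted p = 0.0224 and 0.0241). Without the Q175 line both were positive at that age (0.11 and 0.21) and not called. The median slope of the 10 at 6 months was −0.14, against 0.00 for all genes. It was −0.05 at both of the other ages.

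Cps1 opens the cycle in the mitochondria and is among the most abundant proteins there. At 6 months its lowest, median and highest library had 3358, 4758 and 6572 CPM in Q175, against 5109.8, 6296 and 6513 CPM in Q20. In all, 6 of the 8 Q175 libraries lay below every Q20 library and 1, the female F1, lay above all of them, so the groups overlapped. The line means were 6070.25 CPM in Q20, 5499.79 CPM in Q80, 5066 CPM in Q92, 4919.8 CPM in Q111, 4979 CPM in Q140 and 4737 CPM in Q175, with SDs from 478 CPM (Q20) to 1073 CPM (Q92). The slope was −0.24 ± 0.06 (SE, adjusted p = 0.0186), and Q175 against Q20 gave −0.38 ± 0.11 (adjusted p = 0.0212). Of all genes tested 10.2% were called between Q175 and Q20 at 6 months, 0.258% at 2 months and 0.931% at 10 months, and Cps1 at 6 months was the only member called in these 3 comparisons. At 2 and 10 months 0 members were called by edgeR, DESeq2 or limma, and 3 and 2 had an unadjusted p below 0.05 in edgeR's test. At 2 and 10 months its Q175-against-Q20 differences were −0.22 ± 0.10 and −0.24 ± 0.11 (adjusted p = 0.333 and 0.338).

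The 6-month call for Cps1 depended on which libraries were fitted and how. The slope lost the call without the Q20 line (−0.18, adjusted p = 0.485), without the Q175 line (−0.28, adjusted p = 0.0593), with the index set as a covariate (−0.28, adjusted p = 0.0571), in females alone (−0.30, adjusted p = 0.137) and in males alone (−0.17, adjusted p = 0.171), and it stayed negative in all 5. Q175 against Q20 lost it without Q175 F2 (−0.33, adjusted p = 0.0507), without Q175 M4 (−0.37, adjusted p = 0.0502) or without Q20 F4 (−0.35, adjusted p = 0.056). In all, 6 of 25 alternative fits of Q175 against Q20 lost the call, males alone among them. Without the 3 Q20 females named above the slope was −0.21 (adjusted p = 0.223) and Q175 against Q20 was −0.33 (adjusted p = 0.239). The number of all genes called then fell to 23 for the slope and to 2 for Q175 against Q20. Without Q20 F4 alone the slope of Cps1 was −0.22 with an adjusted p of 0.0531. Kupffer cell and macrophage markers (13 genes, all detected) summed to between 137 and 592 CPM in Q175 and between 412 and 1287 CPM in Q20 at this age, with the highest sum in Q20 F4, and 12 of the 13 were lower with the repeat length. Their part in the result was not tested. In bulk tissue, fewer cells of a type and less RNA per cell cannot be told apart.

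Hal makes urocanate and ammonia from histidine. At 6 months its lowest, median and highest library had 289.5, 405 and 669.6 CPM in Q175, against 378, 522 and 761 CPM in Q20. Of the 8 Q175 libraries 7 lay below the median of Q20, and the groups overlapped. The slope was −0.35 ± 0.11 (adjusted p = 0.0424), and Q175 against Q20 gave −0.45 ± 0.16 (adjusted p = 0.059). In females alone Q175 against Q20 was −0.80 (adjusted p = 0.0258) and in males alone −0.09 (adjusted p = 0.852); the slopes of the sexes were compared directly, as given further on. The slope was also lost when any of 10 single libraries of Q175 or Q20 was left out (adjusted p up to 0.102), without the 3 Q20 females (−0.35, adjusted p = 0.213), without the Q20 line (−0.44, adjusted p = 0.182), without the Q175 line (−0.38, adjusted p = 0.145), with no filter on low counts (adjusted p = 0.0602), and under limma on FPKM (adjusted p = 0.144).

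The other members of the cycle did not pass the test in the slope at 6 months. Ass1 had a slope of −0.15 ± 0.09, Asl −0.12 ± 0.07, Arg1 −0.10 ± 0.06 and Otc −0.01 ± 0.04. Nags, which makes the N-acetylglutamate that Cps1 needs, had 0.09 ± 0.06. Of the glutamine enzymes, Gls2 had −0.24 ± 0.08 (adjusted p = 0.0775) and Glul 0.12 ± 0.08, and Sds had −0.23 ± 0.13. Without the Q175 line the called genes were Arg1 (−0.26, adjusted p = 0.0438) and Sds (−0.54, adjusted p = 0.0438) in place of Cps1 and Hal, and without Q20 M3 Gls2 was called as well (−0.28, adjusted p = 0.041). Of the 10 slopes 8 were negative at 6 months, 6 at 2 months and 8 at 10 months.

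**Figure D2:**
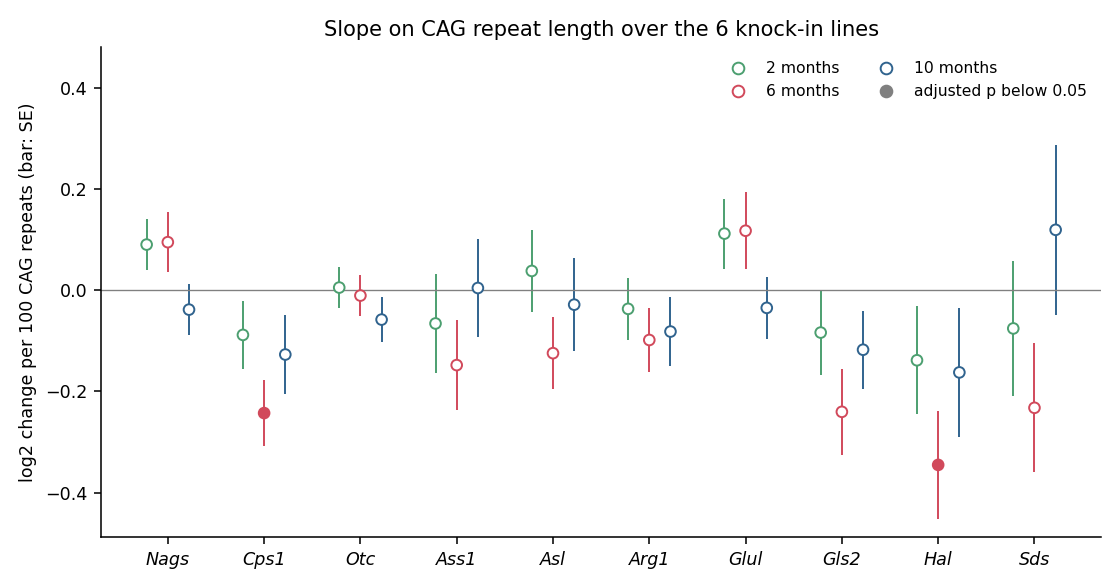
Slope of each gene on the repeat length, in log2 units per 100 CAG repeats with its SE, over the 6 knock-in lines at 2, 6 and 10 months. Filled points passed an adjusted p of 0.05. Only Cps1 (−0.24) and Hal (−0.35) at 6 months are filled.

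Whether the slopes differ between ages or sexes was tested directly. The slope at 6 months minus that at 2 months was called for 0 of the 10 (0.235% of all genes), and so was the slope at 10 months minus that at 2 months (0.724% of all genes). The lowest adjusted p over the members was 0.534 and 0.437 in these edgeR tests, and 0 members had an unadjusted p below 0.05 in either. DESeq2 and the fits without the libraries that stand apart called 0 as well. The slope in females minus that in males was called for 0 members at 2 months (0% of all genes), 6 months (0.213%) and 10 months (0.173%), with 1, 0 and 3 members at an unadjusted p below 0.05. The negative slopes at 6 months were therefore not shown to differ from those at 2 months.

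Each longer line was also set against Q20, which all these comparisons share. Q80 against Q20 gave 0 called members at 2, 6 and 10 months (0.0991%, 8.24% and 0.00637% of all genes), and Q140 against Q20 gave 0 at 2, 6 and 10 months (0%, 4.91% and 0%). In edgeR's test 0 members had an unadjusted p below 0.05 for Q80 at any age and for Q140 at 2 and 10 months, and 6 had one for Q140 at 6 months. DESeq2 and limma called 0 as well, except that DESeq2 called 1 in Q140 at 6 months, Sds (−0.60, adjusted p = 0.0492, against −0.61 ± 0.21 and 0.0705 in edgeR). Within the index sets of 6 months, Q175 against Q80 gave 1 called member (2.07% of all genes) and Q140 against Q111 gave 0 (1.67% of all genes; 0 at an unadjusted p below 0.05). The member called was Hal: its lowest, median and highest library had 289.5, 405 and 669.6 CPM in Q175, against 445, 634 and 943 CPM in Q80, a difference of −0.61 ± 0.16 (adjusted p = 0.0306). Of the 8 Q175 libraries 5 lay below every Q80 library.

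In Q92 the difference of Hal from Q20 had opposite signs at 6 and 10 months. At 6 months its lowest, median and highest library had 301, 359 and 653 CPM in Q92, against 378, 522 and 761 CPM in Q20, and the difference was −0.51 ± 0.16 (adjusted p = 0.0231; 16.6% of all genes called). At 10 months the same 3 values were 380.4, 514 and 839.7 CPM in Q92, against 317, 383 and 476 CPM in Q20, and the difference was 0.63 ± 0.14 (adjusted p = 0.00829; 3.72% of all genes called). Of the 8 Q92 libraries 5 lay below every Q20 library at 6 months, and 5 lay above every Q20 library at 10 months. At 2 months the difference was −0.50 ± 0.15, and all 8 Q92 libraries lay below the median of Q20, but none of the 15137 genes tested was called (0%; adjusted p = 0.54 for Hal; 5 members at an unadjusted p below 0.05).

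The change between ages was tested itself. For Hal the Q92-against-Q20 difference at 10 months minus that at 6 months was 1.13 ± 0.21 (adjusted p = 5.16e-05). In this test 5 members and 22.9% of all genes were called: Ass1 (0.63 ± 0.20), Cps1 (0.45 ± 0.16), Gls2 (0.54 ± 0.18) and Hal were higher, and Glul (−0.43 ± 0.16) was lower. Without the Q20 females of 6 months and the other libraries that stand apart, Hal was the only one of the 5 still called (0.90, adjusted p = 0.00986), with 0.51 for Ass1, 0.35 for Cps1, 0.56 for Gls2 and −0.36 for Glul (adjusted p = 0.168, 0.217, 0.0739 and 0.205). Under limma on FPKM Glul lost the call (−0.34, adjusted p = 0.119) and Arg1 gained it (0.43, adjusted p = 0.0205). The FPKM scale moves the median of all genes in this test upward by 0.10. The highest Hal values of Q92 at 10 months came from the females F3, F1 and F4 (839.7, 793 and 751 CPM). F3 and F4 hold bile duct marker sums of 85.7 and 101 CPM, against at most 73.4 CPM in Q20 at this age. Without the 7 libraries of this age that hold muscle, blood or bile duct RNA, the 10-month difference was 0.43 (adjusted p = 0.154). In the fit of the 2 groups alone it was 0.60 (adjusted p = 0.058) at 10 months, the 6-month difference was not called either, and without the 3 Q20 females the 6-month value was −0.47 (adjusted p = 0.141).

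Q111 differed from Q20 in Ass1 at 10 months. Its lowest, median and highest library had 3254, 4042 and 4597 CPM in Q111, against 2274, 2807 and 3380.1 CPM in Q20. Of the 8 Q111 libraries 7 lay above every Q20 library. The difference was 0.53 ± 0.14 (adjusted p = 0.0444; 0.962% of all genes called), and it lost the call without the libraries with muscle, blood or bile duct RNA (0.52, adjusted p = 0.309), in the fit of the 2 groups (0.54, adjusted p = 0.123), with no filter on low counts and under limma on FPKM (adjusted p = 0.27). At 6 months Q111 against Q20 called 0 members (0.678% of all genes; 4 members at an unadjusted p below 0.05), with −0.34 ± 0.15 for Ass1, and at 2 months 0 (0% of all genes; 0 members at an unadjusted p below 0.05). The difference at 10 months minus that at 6 months was called for Ass1 (0.85 ± 0.21, adjusted p = 0.0181) and Cps1 (0.57 ± 0.16, adjusted p = 0.0325), in a test that called 2.09% of all genes. Neither was called without the libraries that stand apart (0.82 for Ass1 and 0.52 for Cps1, adjusted p = 0.205 and 0.292).

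Q20 was set against the wild type to see the effect of the short allele. At 2 and 10 months 0 members were called (0% and 0.00637% of all genes; 1 and 0 members at an unadjusted p below 0.05). At 6 months Glul and Otc were lower in Q20, in a comparison that called 31.3% of all genes. The lowest, median and highest library of Glul had 368, 823 and 917 CPM in Q20, against 864, 1013 and 1176 CPM in wild type (−0.35 ± 0.12, adjusted p = 0.0218). Otc had 421, 486 and 602 CPM in Q20, against 521, 565 and 648 CPM in wild type (−0.21 ± 0.07, adjusted p = 0.012). For both genes 6 of the 8 Q20 libraries lay below every wild-type library, and the groups overlapped. At this age the library names of the groups are of different series, so genotype and library series cannot be told apart. Without the 3 Q20 females neither was called (adjusted p = 0.106 for Glul and 0.193 for Otc). Under limma on FPKM neither was called (−0.28 for Glul and −0.11 for Otc, adjusted p = 0.064 and 0.181). Cps1 was called higher in Q20 in that fit (0.36, adjusted p = 0.0126). The FPKM scale moves the median of all genes in this comparison by 0.08 toward Q20.

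Glul, which makes glutamine from ammonia and glutamate, was higher in females at all 3 ages, and Cps1 was lower in females at 2 and 10 months. Sex was tested over 7 genotypes, and most genes were called: 57.2% at 2 months, 60.4% at 6 months and 56.6% at 10 months. Of the 10 members 4 were called at 2 months, 4 at 6 months and 3 at 10 months, a smaller share than among all genes. The directions differed: Glul, Sds, Asl and Gls2 were higher in females where called, and Cps1, Ass1 and Nags lower. Hal was not among the members called at 2 months, but 4 of 6 alternative fits called it lower in females. Among these was the fit without the library M5 of Q80 (−0.20, adjusted p = 0.0253). All 13 macrophage markers were higher in females at 2 and 6 months and 12 at 10 months, and their part in these differences was not tested.

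At 2 months the lowest, median and highest library of Glul had 454, 1039 and 1258 CPM in females (n = 27), against 715, 831 and 1137 CPM in males (n = 29). The ranges overlapped, and the highest male value came from the Q80 library M5, which goes against its label. The difference was 0.26 ± 0.06, with an adjusted p of 0.000191. At 6 months it was 0.24 ± 0.06 (adjusted p = 0.001), and at the age of 10 months 0.13 ± 0.05, where the adjusted p was 0.0399. Females were higher in 6 of 7 genotypes at 2 months, with M5 counted as a male, and in all 7 at 6 and 10 months. The 2-month call was kept in all 6 alternative fits, among them that without M5. Without the libraries with muscle, blood or bile duct RNA the 10-month value was 0.09 and not called (adjusted p = 0.186), and the call was also lost with the replicate number as a block (0.13, adjusted p = 0.0506) and with no filter on low counts (0.12, adjusted p = 0.088). Cps1 averaged 5113 ± 978 CPM in females and 5915 ± 734 CPM in males at 2 months (−0.21 ± 0.06, adjusted p = 0.00133), and 4548 ± 970 CPM in females and 5269.9 ± 635 CPM in males at 10 months (−0.22 ± 0.06, adjusted p = 0.00136). In both it was lower in females in 6 of 7 genotypes, and at 6 months the difference was −0.09 ± 0.06 and not called (0.03 on the FPKM scale).

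Sds averaged 192 ± 57.4 CPM in females and 154 ± 55.0 CPM in males at 2 months (0.31 ± 0.11, adjusted p = 0.0195), and 199 ± 48.4 CPM in females and 156 ± 63.2 CPM in males at 6 months (0.37 ± 0.11, adjusted p = 0.00399). At 10 months the difference was 0.27 ± 0.14 (adjusted p = 0.0945). Nags was lower in females at 6 months (52.8 ± 7.43 CPM in females and 61.0 ± 10.6 CPM in males, −0.20 ± 0.05) and Asl was higher (522 ± 83.3 CPM in females and 469 ± 89.9 CPM in males, 0.16 ± 0.06). Without the 3 Q20 females Asl was not called (0.14, adjusted p = 0.0715). Ass1 was lower in females at 2 months (−0.18 ± 0.07) and Gls2 higher at 10 months (0.19 ± 0.06). Otc, an X-linked gene, had differences of −0.03 ± 0.03, −0.06 ± 0.04 and −0.04 ± 0.04 at 2, 6 and 10 months, none of them called. On the FPKM scale the sign turned, with 0.06, 0.07 and 0.11, and limma called Otc higher in females at 2 months (adjusted p = 0.0481) and 10 months (adjusted p = 0.00111) but not at 6 months (adjusted p = 0.0525). The FPKM scale moves the median of all genes in this comparison by 0.08, 0.11 and 0.13 toward females at 2, 6 and 10 months, and under limma on FPKM the calls for Cps1, Ass1 and Nags were lost.

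**Figure D3:**
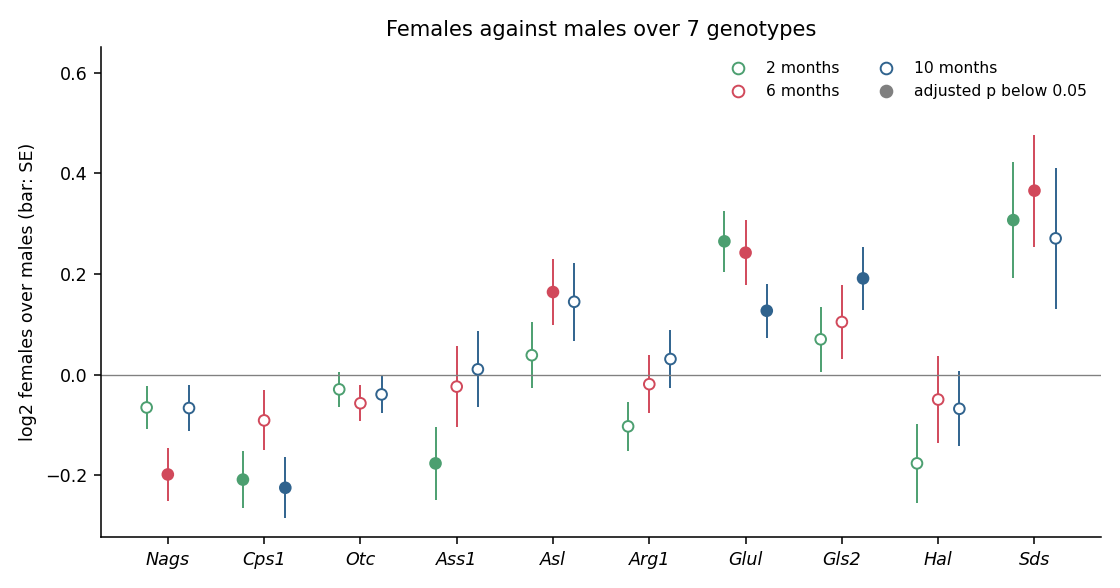
Difference between females and males for each gene in log2 units with its SE, at 2, 6 and 10 months, over 7 genotypes. Filled points passed an adjusted p of 0.05. Glul is filled at all 3 ages (0.26, 0.24 and 0.13), above 0.

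With age the members of the knock-in lines were called in both later ages. At 10 against 2 months 5 of the 10 were lower and none higher (22.9% of all genes called): Sds (−0.32 ± 0.09), Cps1 (−0.19 ± 0.05), Gls2 (−0.18 ± 0.05), Arg1 (−0.11 ± 0.04) and Otc (−0.09 ± 0.03). Arg1 lost the call in each alternative run, with RLE scaling (adjusted p = 0.0536), under limma on FPKM (adjusted p = 0.197) and without the libraries that stand apart (adjusted p = 0.0671), where Hal was called instead (−0.17, adjusted p = 0.0427). Under limma Gls2 and Otc lost it too (adjusted p = 0.0945 and 0.167). Arg1 and Otc were lower in 5 of 6 lines, and Cps1 and Gls2 in 4 of 6. Sds averaged 141 ± 62.4 CPM at 10 months (n = 47) and 172 ± 62.0 CPM at 2 months (n = 48), and it was lower in 5 of 6 lines. At 6 against 2 months Nags was higher (0.24 ± 0.04), in 6 of 6 lines, and Arg1 (−0.17 ± 0.04), Otc (−0.16 ± 0.03), Glul (−0.13 ± 0.05) and Cps1 (−0.11 ± 0.05) were lower, in a comparison that called 53.4% of all genes. Otc and Glul were lower in 6 of 6 lines, Arg1 in 5 and Cps1 in 4. Under limma on FPKM Glul and Cps1 lost the call (adjusted p = 0.127 and 0.266). The library names of the knock-in animals differ between 2 and 6 months, so age and library series cannot be told apart there. The libraries of 2 and 10 months carry separate ranges of numbers, whose meaning the labels do not give. Age and number range cannot be told apart in that comparison either. In the wild type 0 members were called at 6 against 2 months (2.32% of all genes; 0 at an unadjusted p below 0.05) and 0 at 10 against 2 months (2.2% of all genes; 1 at an unadjusted p below 0.05), where Sds had −0.58 ± 0.23 (adjusted p = 0.167). All 10 wild-type differences at 10 against 2 months were negative, as were all 10 in the knock-in lines. Their median was −0.15 in the wild type and −0.10 in the knock-in lines. The wild type had only 8 libraries per age, so an age change in the knock-in lines alone was not shown.

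Some members varied together from animal to animal. Correlations were taken at each age over the residuals of log2 CPM after genotype and sex (n = 56, 56 and 55 libraries), as Pearson's r and Spearman's rho, with a two-sided permutation test within genotype and sex and Benjamini-Hochberg adjustment over 15 relations. The smallest p that the permutations can give is 1e-05.

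Cps1, which brings ammonia into the cycle, and Ass1, which brings in aspartate, varied together at all 3 ages. They had r = 0.617 at 2 months (p = 0.00021, adjusted 0.000525) with rho = 0.576 (p = 0.00018, adjusted 0.00054), r = 0.716 at 6 months (p = 1e-05, adjusted 1e-04) with rho = 0.73 (p = 1e-05, adjusted 1e-04), and r = 0.757 at 10 months (p = 2e-05, adjusted 1e-04) with rho = 0.697 (p = 2e-05, adjusted 1e-04). Without the 2 libraries farthest from the median of Cps1, r was 0.564, 0.691 and 0.742 at 2, 6 and 10 months. Cps1 and Otc had r = 0.347 at 2 months (p = 0.051, adjusted 0.0753) with rho = 0.318 (p = 0.0424, adjusted 0.0678), r = 0.375 at 6 months (p = 0.0138, adjusted 0.023) with rho = 0.31 (p = 0.0452, adjusted 0.0678), and r = 0.699 at 10 months (p = 2e-05, adjusted 1e-04) with rho = 0.704 (p = 2e-05, adjusted 1e-04). Without the 2 farthest libraries r was 0.372, 0.342 and 0.691.

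Sds and Gls2 also varied together at each age. They had r = 0.485 at 2 months (p = 0.00177, adjusted 0.00332) with rho = 0.469 (p = 0.00187, adjusted 0.00352), r = 0.558 at 6 months (p = 0.00046, adjusted 0.000986) with rho = 0.467 (p = 0.00188, adjusted 0.00352), and r = 0.557 at 10 months (p = 3e-05, adjusted 0.000112) with rho = 0.524 (p = 0.00037, adjusted 0.000925). Without the 2 libraries farthest in Sds, r was 0.4, 0.564 and 0.53. Sds and Hal did not pass at any age, with r = 0.148 at 2 months (p = 0.373, adjusted 0.4) with rho = 0.106 (p = 0.505, adjusted 0.541), r = 0.273 at 6 months (p = 0.123, adjusted 0.154) with rho = 0.169 (p = 0.294, adjusted 0.339), and r = 0.204 at 10 months (p = 0.143, adjusted 0.165) with rho = 0.178 (p = 0.242, adjusted 0.302). Without the 2 farthest libraries r was 0.0746, 0.213 and 0.217.

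Gls2 and Glul, the enzymes at the portal and the central end, ran opposite to each other at 6 months. They had r = −0.729 at 6 months (p = 0.00021, adjusted 0.000525) with rho = −0.589 (p = 1e-04, adjusted 0.000375). Without 2 males, Q20 M2 and Q80 M1, r was −0.591. At the other ages they had r = −0.478 at 2 months (p = 0.0552, adjusted 0.0753) with rho = −0.246 (p = 0.131, adjusted 0.179), and r = −0.0962 at 10 months (p = 0.513, adjusted 0.513) with rho = −0.0371 (p = 0.813, adjusted 0.813). Without Q80 F2 and Q140 F1 r at 2 months was −0.258, so that the value there rests on those libraries, and it was −0.0806 at 10 months without the 2 farthest. In Q20 M2 at 6 months Glul had 368 CPM, against 798 to 917 CPM in the other 7 Q20 libraries, and Gls2 had 745 CPM, against 318 to 511 CPM. Other genes of that library were looked up after these values were seen. Of 6 markers of hepatocytes around the central vein, Cyp2e1 (3379.97 CPM, against 6109 to 8051 CPM in the others), Cyp1a2 (337 CPM, against 683 to 1122 CPM) and Slc1a2 (127 CPM, against 143 to 254 CPM) were lowest there, while Axin2, Oat (1021 CPM, against a median of 1092 CPM) and Lgr5 (8.07 CPM, against a median of 8.47 CPM) lay within the range of the others. G6pc (564 CPM, against 57.1 to 191 CPM), Tat (3039 CPM, against 831 to 1924 CPM) and Igfbp1 (73.8 CPM, against 19.1 to 66.1 CPM), genes known to respond to fasting, were highest in that library.

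**Figure D4:**
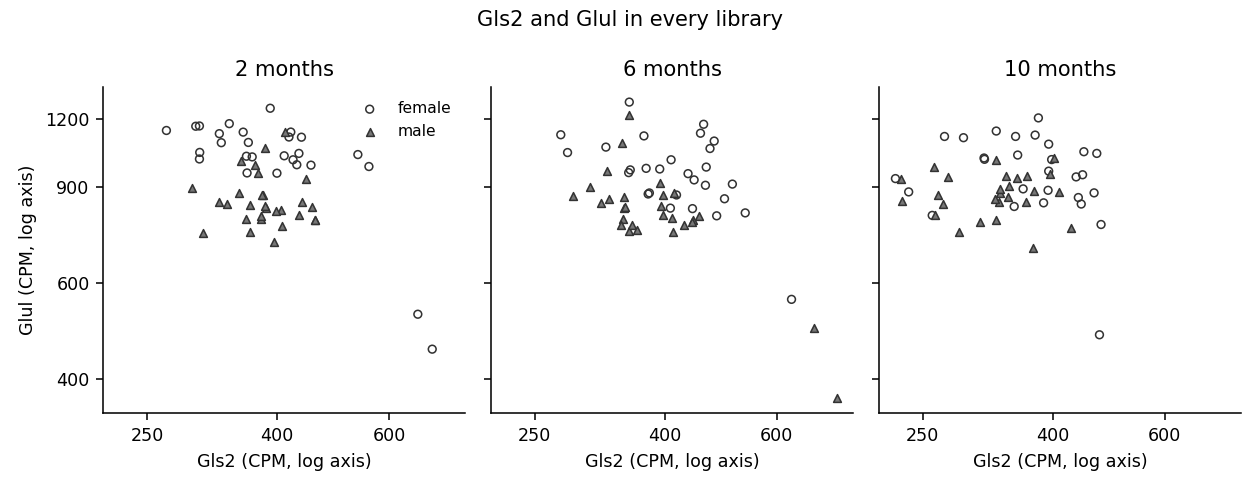
TMM-normalized CPM of Gls2 (horizontal, log axis) and Glul (vertical, log axis) in every library at 2, 6 and 10 months. Open circles are females and filled triangles males. A few libraries lie apart at the lower right, among them Q20 M2 at 6 months (Gls2 745 CPM, Glul 368 CPM).

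Genes whose group means ran most like those of a member were found over the 21 groups, which share age, library series and depth, among 11291 genes, with the 10 members left out of the search. Hal was nearest to Tmem144 (r = 0.941) and Abat (r = 0.938), Otc to Gstk1 (r = 0.936) and Gstz1 (r = 0.913), and Ass1 to Aldh1l1 (r = 0.947) and Cth (r = 0.88). Cps1 was nearest to Acmsd (r = 0.885) and Aass (r = 0.849), Arg1 to Hgd (r = 0.901) and Mccc2 (r = 0.882), and Asl to Fh1 (r = 0.86) and Crcp (r = 0.845). Gls2 was nearest to Ccdc28a (r = 0.914) and Hpd (r = 0.904), Sds to Hpd (r = 0.882) and Klf15 (r = 0.858), Nags to Puf60 (r = 0.94) and Itfg2 (r = 0.928), and Glul to Tmem42 (r = 0.839) and Timm9 (r = 0.819). Among the members themselves, Ass1 and Gls2 were the nearest pair (r = 0.883), above Cth for Ass1, Cps1 and Gls2 had r = 0.875, above Aass for Cps1, and Glul had the weakest best partner (Otc, r = 0.271).

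The partners of the cycle were counted beside it in the slope at 6 months, where 5.67% of all genes were called. Of 21 measured genes for transport of amino acids, ammonia and cycle intermediates, 0 were higher and 7 lower with the repeat length, with a median of −0.12 against 0.00 for all genes. Slc38a3 and Slc38a4, which carry glutamine and other neutral amino acids, fell by 0.24 ± 0.05 (adjusted p = 0.00325) and 0.24 ± 0.05 (adjusted p = 0.00571), the mitochondrial glutamate carrier Slc25a22 by 0.29 ± 0.07, and the arginine and lysine carrier Slc7a2 by 0.41 ± 0.10. Of 26 genes for the breakdown of amino acids 0 were higher and 5 lower (median −0.12), among them Mat1a (−0.24 ± 0.06), Aass (−0.21 ± 0.06) and Cth (−0.38 ± 0.11). None of the 3 enzymes that follow Hal passed, with −0.06 ± 0.04 for Uroc1 and −0.11 ± 0.08 for Amdhd1. Of 15 regulators 1 was lower, Ppara (−0.40 ± 0.09, adjusted p = 0.00955), and of 12 genes of fasting and gluconeogenesis 1, Cpt1a (−0.24 ± 0.06). Of 10 genes of polyamine and arginine use 1 was lower, Azin1 (−0.25 ± 0.06), and 0 of 13 pericentral markers, 0 of 10 periportal markers and 0 of 11 genes of the amino acid response were called. Without the 3 Q20 females, where the number of all genes called was 23 in place of 879, 1 gene of these 9 lists was called, Slc25a22 (−0.33, adjusted p = 0.0468). Slc38a3 then had −0.20 (adjusted p = 0.0889) and Ppara −0.45 (adjusted p = 0.069). At 2 and 10 months no gene of these 9 lists was called in the slope.

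In the comparison of sexes at 6 months, where 60.4% of all genes were called, the partners were called in a share near that. Of the 21 transport and partner genes 11 were higher and 3 lower in females, among them Slc38a3 (0.47 ± 0.05) and Slc1a2 (0.48 ± 0.06), while Slc25a15, the ornithine carrier of the cycle, was lower (−0.37 ± 0.05). Without the 3 Q20 females 9 were higher and 2 lower. Of 13 pericentral markers 7 were higher and 0 lower, with Lect2 at 0.73 ± 0.06. Of the 3 enzymes after Hal, Uroc1 was higher (0.23 ± 0.03) and Ftcd lower (−0.23 ± 0.04).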

How the data were processed

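The authors deposited a table of estimated counts and a table of FPKM values for 39179 gene IDs in 167 liver libraries, per the file headers, and 14.1% of the deposited count values are not whole numbers. Reads were handled with CASAVA 1.8.2, per the submitters' processing notes. Which aligner, quantifier and genome build served is not given in the sources used. Gene symbols came from GENCODE M21, which named 37693 IDs.

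Estimated counts were rounded, filtered with filterByExpr, scaled by TMM and tested with the quasi-likelihood test of edgeR 4.0.16 in R 4.3.3. Models held genotype and sex at 1 age (line as its repeat length for the slopes), and p-values were adjusted by the Benjamini-Hochberg method over all genes tested. CPM are TMM-normalized. FPKM, as deposited by the authors, served for levels between genes and for limma 3.58.1 on log2(FPKM + 0.1). DESeq2 1.42.0, RLE scaling, no low-count filter, 1 sex alone, lines or libraries left out, the index set and the replicate number as a block were alternatives. The tests were checked on simulated data. Intervals and SEs carry the spread between libraries. The genes, gene lists and alternatives were chosen with earlier results of these data known. The text names all 10 members, from each list up to 4 genes past the threshold with the smallest p (otherwise 2), and for each member the 2 genes most like it over groups; some genes that this rule names are not reported here. The differences between 10 and 6 months for Q92 and Q111 were added after seeing the data, as were the fits across ages, the slopes by sex and the gene lists without the libraries that stand apart.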

Additional observations from a re-analysis of the deposited data

Results flagged for a closer look

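Of 210 sets of values (10 genes in 21 groups), 17 held a library far from the rest of its group by Dixon's criterion, and chance flags about 1 in 20. In Q20 at 6 months the male M2 had the highest Ass1 (5379 CPM) and Gls2 (745 CPM) and the lowest Glul (368 CPM). Low Glul also stood apart in Q80 F2 at 2 months (454 CPM) and Q80 M1 at 6 months (495 CPM), and high Glul in Q92 M2 at 6 months (1223 CPM). In Q140 F4 at 10 months Arg1 (1519 CPM) and Sds (429 CPM) were high and Cps1 (3571 CPM) low. Q140 F2 at 6 months had high Gls2 (633 CPM) and Sds (277 CPM), and Q175 F2 at 10 months high Asl (689 CPM) and Gls2 (436 CPM). Q111 M1 at 2 months had high Arg1 (1758 CPM) and Sds (361 CPM). Sds was also high in Q80 M3 at 10 months (256 CPM), and Ass1 was low in wild-type F2 at 2 months (2135 CPM).

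The difference between Q92 and Q20 changed from 6 to 10 months by 1.13 for Hal, 0.63 for Ass1, 0.54 for Gls2, 0.45 for Cps1 and −0.43 for Glul on the log2 scale. That between Q111 and Q20 changed by 0.85 for Ass1 and 0.57 for Cps1. These 7 changes passed the test of the difference itself, in contrasts added after seeing the data. Without the libraries that stand apart only that of Hal did (0.90, adjusted p = 0.00986), and under limma on FPKM that of Glul did not (adjusted p = 0.119). Q20 is shared by both comparisons.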

How the results depend on the processing

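Called results of single genes kept their direction in 191 alternative fits and were called in 139 of them. With 1 library left out they were called in 34 of 48 fits. The number of the 10 genes called in the 6-month slope, 2 in the report, was 0 in females alone, 0 in males alone, 0 without 3 Q20 females (F1, F3 and F4), 0 without the Q20 line, and 1 with the index set as a covariate, under limma on FPKM or with no low-count filter. With 1 library left out it ran from 0 to 3. Without the Q175 line it was 2, with Arg1 and Sds in place of Cps1 and Hal. The 10-month slope gave 2 without the Q20 line, Gls2 and Hal, both negative (adjusted p = 0.0224 and 0.0241). Q175 against Q20 at 6 months gave 2 under DESeq2, 0 in males alone, 0 without the 3 females, and 0 to 2 with 1 library left out. Q111 against Q20 at 10 months gave 0 under limma, with no low-count filter, with the 2 groups alone and without the libraries with muscle, blood or bile duct RNA. Q92 against Q20 gave 0 at 10 months with the 2 groups alone or without those libraries, and at 6 months 2 under DESeq2, 3 under limma, 0 with the 2 groups alone and 0 without the 3 females. Q140 against Q20 at 6 months gave 1 under DESeq2, Q175 against Q80 gave 0 under limma, and Q20 against wild type at 6 months gave 1 under limma (Cps1, higher in Q20, in place of Glul and Otc) and 0 without the 3 females. Without the libraries that stand apart, fits added after seeing the data, the differences between 10 and 6 months gave 1 for Q92 (5 in the report) and 0 for Q111 (2 in the report). Under limma the knock-in age comparisons gave 2 (10 against 2 months) and 3 (6 against 2 months), RLE scaling gave 4 at 10 against 2 months, and sex at 10 months gave 6. The causes were not tested.

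The labels do not say that replicate numbers pair the samples. Same-numbered libraries of different genotypes had a mean correlation of −0.0127, 0.0883 and 0.0043 at 2, 6 and 10 months. Libraries of other numbers, of the same sex and different genotypes, had 0.0041, −0.029 and −0.00098. The correlations are over deviations from the mean of genotype and sex, which cancel within each such set. The values for other numbers therefore largely follow from those for the same number and are no separate comparison. The mean of same-numbered libraries was highest at 6 months, and a structure shared by number was not excluded there. At that age same-numbered libraries of the same index set carry the same index number, where their names give it. With the replicate block, 2 genes were called in Q175 against Q20 and 2 in Q92 against Q20 at 6 months, and 0 in Q111 against Q20 at 10 months.

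The values that changed sign were not called in the report. Of their alternatives only Otc under limma on FPKM passed the threshold, at 2 and 10 months between the sexes. In the 6-month slope, Arg1 was 0.019 and Otc 0.014 in males alone, and Otc ran from −0.029 to 0.00842 with 1 library left out. In Q175 against Q20 at 6 months, males alone gave 0.18 for Arg1, 0.16 for Asl, 0.060 for Ass1 and 0.19 for Sds, and Otc was −0.0022 in females alone and −0.035 without those 3 females. In the 10-month slope without the Q175 line, Cps1 was 0.069, Gls2 0.11 and Hal 0.21, and Gls2 was 0.016 in females alone. Under limma on FPKM, females against males gave Nags 0.020 and Otc 0.063 at 2 months, Arg1 0.12, Ass1 0.11, Cps1 0.028, Hal 0.10 and Otc 0.073 at 6 months, and Hal 0.11, Nags 0.080 and Otc 0.11 at 10 months. Ass1 at 10 months was −0.000873 with no low-count filter and −0.018 without the libraries with muscle, blood or bile duct RNA.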
